A study of Mus musculus with 16 samples.

Results

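*Prlh* encodes the precursor of prolactin releasing peptide, and its normalized expression was examined in the pituitary gland of 16 female mice. It was 1 gene of the 17362 listed (ENSMUSG00000090550, chromosome 1, 90953108 to 90954027, plus strand, GRCm38), and it was chosen by its measured values in these mice, near 0 in most controls and far above 0 in every mutant. Mice were 27 weeks old, and 4 were studied in each of the 4 combinations of genotype and diet, with 1 library per mouse. Controls (labelled Ctrl) carried floxed *Esr1* without Cre, and mutants (labelled Esr1Nkx2-1Cre mutant) lacked *Esr1*, the gene of oestrogen receptor alpha, in cells in which *Nkx2-1* drives Cre. Mice ate a standard diet (SD, labelled CHOW) or a high-fat diet (HFD) for the last 17 weeks. The line was kept on a mixed CD-1 and 129P2 background, and the stage of the oestrous cycle of each mouse is not given in the sources used here. *Nkx2-1* is known for its expression in the ventral hypothalamus and in the posterior lobe of the pituitary, and it also marks thyroid and lung.

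Prolactin releasing peptide is an RF-amide, a family of short peptides that end in an amidated arginine and phenylalanine. It was first known as a ligand that makes pituitary cells release prolactin, and its main neurons lie in the brainstem and hypothalamus, where it acts on feeding and stress through the receptor gene *Prlhr*. Prolactin itself is made by the lactotrophs of the anterior lobe. Oestrogen drives the growth and secretion of these cells and raises several of their genes, whereas dopamine, through the receptor gene *Drd2*, holds them back.

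The coding sequence is shown because the gene is very short, which sets how its values can be read. The GENCODE M21 model has 1 transcript of 276 bases in 2 exons, of which 261 bases are coding with the stop codon, and it begins at the start codon. Capitals mark the codons for arginine, phenylalanine and glycine, codons 51 to 53 of 87, the only such run in the sequence and the signal from which the amidated end is made.
Prlh coding sequence: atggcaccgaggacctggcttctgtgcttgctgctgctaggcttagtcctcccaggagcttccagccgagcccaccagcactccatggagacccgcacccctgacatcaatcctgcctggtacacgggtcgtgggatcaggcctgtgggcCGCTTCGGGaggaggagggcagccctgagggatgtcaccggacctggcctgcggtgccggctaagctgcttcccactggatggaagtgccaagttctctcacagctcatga
The transcript was shorter than or close to a sequenced fragment, so a normalized value for it rested on an effective length of about 50 bases. From low values of short genes, 1 read was estimated to be worth between 0.895 and 1.37 units in the 16 libraries. Comparisons of *Prlh* between mice do not depend on this length if fragments are alike, but its level against that of other genes does. The raw reads were not used here, so counts of reads are estimates.

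*Prlh* was at 0 in 5 of 8 controls and at 180 or more in all 8 mutants, and 1 control exceeded every mutant. In controls on SD the values were 17.1 in P356 and 0 in P358, P359 and P383. In controls on HFD they were 7.71 in P385, 0 in P390 and P391, and 556 in P392. Thus 5 controls showed no signal, 2 showed a low signal and 1 showed a high one. In mutants on SD the values were 322 in P357, 236 in P381, 418 in P382 and 358.05 in P384. In mutants on HFD they were 317 in P339, 380 in P341, 363 in P387 and 180 in P388. No mutant was at 0 or at a low level. The groups did not overlap on SD, where the lowest mutant was 13.8 times the highest control, and they overlapped on HFD through P392 alone. These values were the reason for choosing the gene, so the difference by genotype is a description and carries no test.

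**Figure D1:**
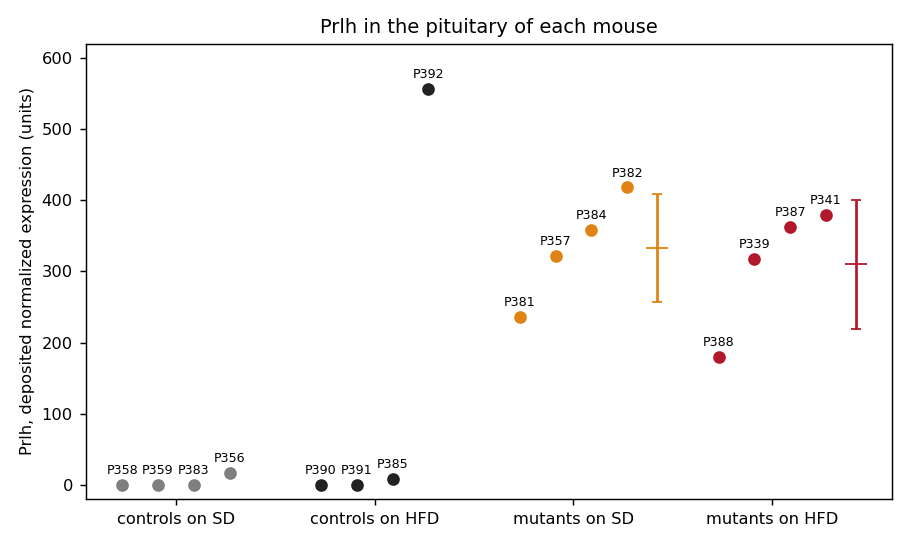
Normalized expression of *Prlh* (y axis, deposited units) in each of the 16 mice, by genotype and diet, with the mean and SD of the 2 mutant groups at their right. The 8 mutants lie between 180 and 418, 7 controls lie at or below 17.1, and P392 stands at 556.

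The low values of P356 and P385 lay above the bound of 3 reads used for a library at 0. By the estimate above, P356 held about 16 reads of *Prlh* and P385 about 7, whereas mutants held between 147 and 406 and P392 about 407. A library at 0 allowed a value of up to 3 reads, between 2.69 and 4.10 units, by counting error alone. The counting error of the estimates for P356 and P385 was not set against this bound, and it matters most for P385. Among all genes of a library, *Prlh* ranked between 171 and 409 in mutants and 131 in P392, but 5994 in P356 and 9140 in P385, on the deposited scale and so subject to the length noted above.

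Within mutants no difference by diet was found. Mutants on SD had 334 ± 76.0 (SD, n = 4) and mutants on HFD 310 ± 90.6 (SD, n = 4), and their ranges overlapped. On the log2 scale HFD was lower by a difference of -0.13 (exact permutation p = 0.657, two-sided), and the 95% interval of that difference, from the spread of the 8 mutants, ran from -0.87 to 0.61. In the limma fit over all 16 mice the SE was 1.69, since the controls with a signal widen the shared spread, and the adjusted p was 0.988. A fit on the 8 mutants alone had an SE of 0.25 and an adjusted p of 0.906. The highest mutant was 2.32 times the lowest, and the CV over the 8 mutants was 24.4%.

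In controls the difference by diet rested on 1 mouse. HFD was higher by 2.25 on the log2 scale (exact permutation p = 0.714, two-sided, limma adjusted p = 0.998), and without P392 the difference was 0.06. The difference between genotypes in the diet effect was -2.39 (SE 2.39, limma adjusted p = 0.930). Of the 14345 genes tested, limma called 0 by diet in mutants (0%) and 0 in controls (0%), whereas an unadjusted p under 0.05 was met by 717 and 592 genes.

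The labels give animal numbers that fall into a lower and an upper range, and both ranges held mutants at high and controls at 0. In the lower range the 3 mutants had 317, 380 and 322 and the controls 17.1, 0 and 0. In the upper range the 5 mutants lay between 180 and 418, and the controls were at 0 in 3, at 7.71 and at 556.

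P392 and P357 stood apart from the other 14 libraries in genes of the other lobes, and these values touch every comparison of the genotype. Posterior lobe markers averaged 0.72 in P392 and 0.30 in P357 on the log2(value + 0.5) scale, against 2.19 to 2.96 in the other 14, and melanotroph markers, of the intermediate lobe, averaged 5.07 and 3.66 against 6.46 to 7.81. Despite this likeness P392 was a control at 556 and P357 a mutant at 322, within the range of its group. The other 7 mutants ran from 2.19 to 2.79 for posterior lobe markers, beside 2.33 to 2.96 in the other 7 controls. For melanotroph markers they ran from 6.46 to 7.32, beside 6.55 to 7.81. For each list the lowest of these mutants thus lay below every one of these controls. The part of these lobes in the level of *Prlh* was not tested. The 6 endothelial markers moved with *Prlh* between the groups and in P392. Their summed level ran from 116 to 137 in controls on SD and from 171 to 234 in mutants on SD, and from 163 to 180 in mutants on HFD. Among controls on HFD it was 211 in P392 and 106, 117 and 119 in P385, P390 and P391. P356 and P385, the controls with a low *Prlh* signal, had 120 and 106, within or below the level of the controls at 0. The part of these cells in the level of *Prlh* was not tested, and in bulk tissue more cells of a type and more RNA per cell cannot be told apart.

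Markers of the neurons known to make the peptide were scarce. Of 8 markers of noradrenergic and brainstem neurons, 5 were not analysed here, and *Th*, the first enzyme of catecholamine synthesis, stayed between 0 and 1.36 in all 16 mice. *Dbh*, which makes noradrenaline, was 0.625 in P392, 11.1 in P385 and 9.06 in P387, a mutant on HFD, and at or below 4.43 in the other mice, so it was low in the mouse with the highest *Prlh*. *Slc18a2*, also on the list, was 5.79 in P392, 2.09 to 3.20 in the other controls and 3.21 to 6.94 in mutants. *Slc18a2* thus moved with *Prlh* between genotypes and in P392, but not in P356 and P385, at 2.09 and 2.40. On SD the sum of the 3 listed markers ran from 2.61 to 4.85 in controls and 5.86 to 8.62 in mutants, without overlap, and on HFD from 3.09 to 13.8 and from 5.97 to 14.4. In the fit over 16 mice none of the tested markers of this list was called. Without P392 and P357 *Slc18a2* was called higher on HFD, in a fit that called 1064 of 14345 genes. The part of these markers in the level of *Prlh* was not tested. Of 11 markers of hypothalamic neurons 8 were listed, and on SD the groups overlapped in their sum, from 56.9 to 65.0 in controls and from 53.0 to 67.7 in mutants. On HFD the sum ran from 64.7 to 79.98 in mutants. Among controls on HFD it was 80.2 in P392, the highest of the 16 mice, and 60.1, 57.5 and 65.7 in P385, P390 and P391. P356, with a low *Prlh* signal, had the lowest sum of the controls, 56.9. The part of the hypothalamic markers in the level of *Prlh* was not tested either.

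The 10 genes with profiles most like that of *Prlh* over the 16 mice were also intermediate in the controls with a low *Prlh* signal. They were chosen by r over all 16 mice, so their levels in P356, P385 and P392 were favoured by the choice and are no separate finding. P356 and P385 both exceeded the other 5 controls for 9 of the 10, the exception being *Igfbp3*. Pearson's r on log2(value + 0.5) was 0.982 for *Slco2a1* (prostaglandin transporter), 0.979 for *Scnn1g* (a subunit of the epithelial sodium channel), 0.979 for *Fam19a5* (a secreted brain peptide), 0.978 for *Ppp1r1c* (an inhibitor of protein phosphatase 1), 0.976 for *Asic2* (an acid-sensing ion channel), 0.976 for *Rps7* (a ribosomal protein), 0.976 for *Clec2l* (a C-type lectin), 0.974 for *Ly6a* (the surface antigen Sca-1), 0.974 for *Igfbp3* (a carrier of insulin-like growth factors) and 0.971 for *Rgs7bp* (a membrane anchor of RGS proteins). They lay on 8 chromosomes, none of them that of *Prlh*. The r values describe 16 points that share the 2 genotypes and the same libraries, and carry no test. *Rps7* has near-identical copies elsewhere in the genome, so its values are uncertain.

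The likeness was in the steps and not in their size. *Asic2* was between 45.9 and 79.0 in the 8 mutants, 93.9 in P392, 41.1 in P356, 15.4 in P385 and between 2.06 and 4.49 in the other 5 controls. *Slco2a1* was between 14.3 and 19.9 in mutants, 19.8 in P392, 7.67 in P356, 8.51 in P385 and between 2.82 and 5.10 in the other 5. *Ly6a* was between 151 and 284 in mutants, 439 in P392, 41.3 in P356, 39.9 in P385 and between 16.5 and 24.6 in the other 5. P392 was thus at or above the mutants, and P356 and P385 stood between the off controls and the mutants. P392 was the highest control for all 10 genes and exceeded the highest mutant for 4 of them, and P356 and P385 were below the lowest mutant for all 10. The choice by r favours genes of this kind, so these counts are a description. Unlike *Prlh*, none of the 3 was silent in the other controls.

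**Figure D2:**
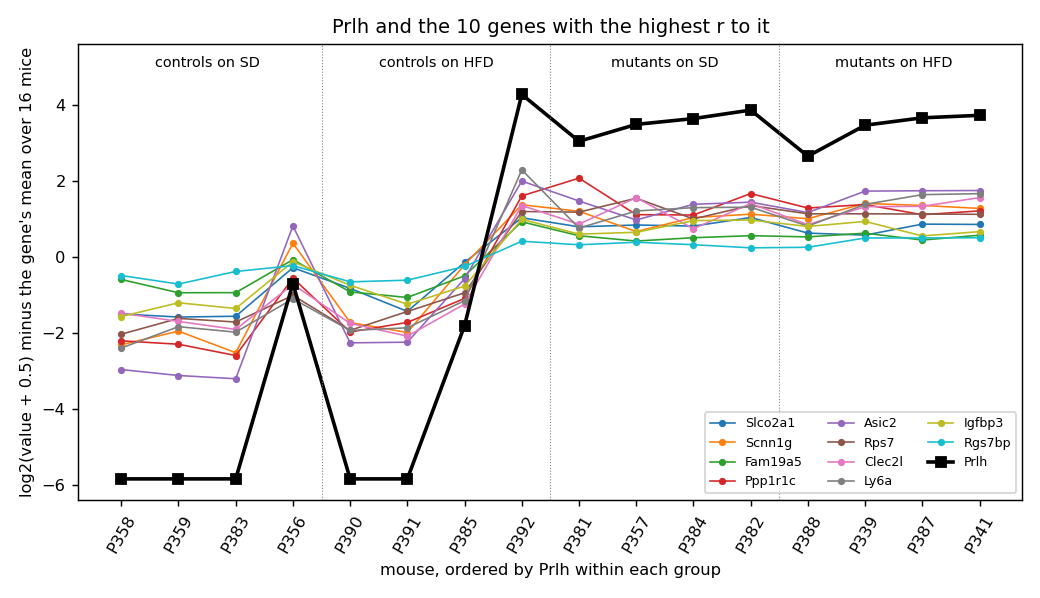
Values of *Prlh* (black squares) and of the 10 genes most like it, as log2(value + 0.5) minus each gene's mean over 16 mice (y axis), for each mouse (x axis, ordered by *Prlh* within each group). P356 and P385 stand between the other controls and the mutants for most lines, and P392 lies with the 8 mutants.

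This order among controls was seen in other genes too. P392, then P356, then P385, then the other 5 controls was the order of 353 of the 14344 other tested genes (2.46%), and of 34 of the 195 other genes called higher in mutants on SD (17.4%). P392 was the highest control for 3085 tested genes (21.5%) and for 157 of those 195 (80.5%). On SD limma called 264 of the 14345 tested genes at an adjusted p under 0.05 (1.84%), 196 higher (1.37%) and 68 lower (0.474%) in mutants. On HFD it called 0 (0%), with 1461 at an unadjusted p under 0.05, and 653 without P392 (4.55%). Without P392 the same fit called 777 on SD (5.42%). Of the 10 genes most like *Prlh*, 6 were called higher on SD (*Slco2a1*, *Ppp1r1c*, *Rps7*, *Clec2l*, *Ly6a* and *Igfbp3*) and none on HFD. They were picked for a profile set by genotype, so this count says nothing beyond the choice.

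On the deposited scale, *Prlh* had the highest level among the genes listed at 0 in most controls and above 0 in every mutant. A level set against other genes depends on the short effective length given above, so this rank is uncertain. In all, 13 genes were listed at 0 in 5 or more controls and above 0 in all 8 mutants, and none of the other 12 exceeded 13.4 in any mouse. The rule took exact zeros only. It left out *Prss28*, which was at most 0.178 in the 7 controls other than P392 and at least 18.1 in mutants. *Adcyap1*, the precursor of the neuropeptide PACAP, was at 0 in 7 controls, at 13.4 in P392 and between 0.1004 and 12.8 in mutants. By the ratio of the lowest mutant to the highest of the 7 controls other than P392, *Prlh* took place 3 at 10.5, after the serine protease genes *Prss28* at 102 and *Prss29* at 33.9. Both were high in P392 too, at 59.1 and 370.

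Not every gene that was high in mutants was high in P392. *Vip* was 5.004 in P392, against 2.21 to 4.65 in the other 7 controls and 6.60 to 37.8 in mutants. *Adamts19*, a secreted protease, was 2.85 in P392, against 0.112 to 1.15 in the other controls and 3.72 to 11.98 in mutants. *Penk*, the enkephalin precursor, was 130 in P392, above the other controls at 38.0 to 72.0 and inside the range of mutants on HFD, 103 to 218, but below mutants on SD, 295 to 463. *Esr1* was 39.6 in P392, in the range of the other controls, 23.6 to 46.6. P392 therefore had mutant levels of *Prlh*, *Prss28* and *Prss29*, a control level of *Esr1*, and *Vip* and *Adamts19* above the other controls but below every mutant.

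Genes known to be induced by oestrogen were set beside *Prlh* mouse by mouse, since lactotroph genes of this kind respond to oestrogen. In P392, P356 and P385, the 3 controls with a *Prlh* signal, *Greb1*, a growth gene that oestrogen receptor alpha switches on, was 111, 106 and 100.4, whereas the other 5 controls lay between 39.8 and 58.1 and the 8 mutants between 99.9 and 118. The 3 controls thus stood at the mutant level for *Greb1*, although P356 and P385 stood far below it for *Prlh*. *Pgr*, the progesterone receptor gene, was 20.1, 17.4 and 12.9 in these mice, between 4.56 and 7.74 in the other 5 controls and between 10.7 and 22.2 in mutants. *Gal*, the precursor of galanin, was 2548, 1294 and 652, between 94.7 and 295 in the other 5 and between 1819 and 3910 in mutants. For all 3 genes P392, P356 and P385 kept the order they had for *Prlh*, with small steps in *Greb1* and wide ones in *Gal*. *Prl* was 438889, 313796 and 291297, in the same order, but P356 and P385 lay within the range of the other 5 controls, 262175 to 370233, and mutants lay between 294311 and 496854. *Vip*, also known to be induced by oestrogen, was 5.004, 4.65 and 2.65 in these mice and between 2.21 and 3.64 in the other 5 controls. P385 thus lay within the range of those 5 for *Vip*, and all 3 lay below every mutant, 6.60 to 37.8. These are values of single mice ordered by *Prlh*, with no test between them.

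**Figure D3:**
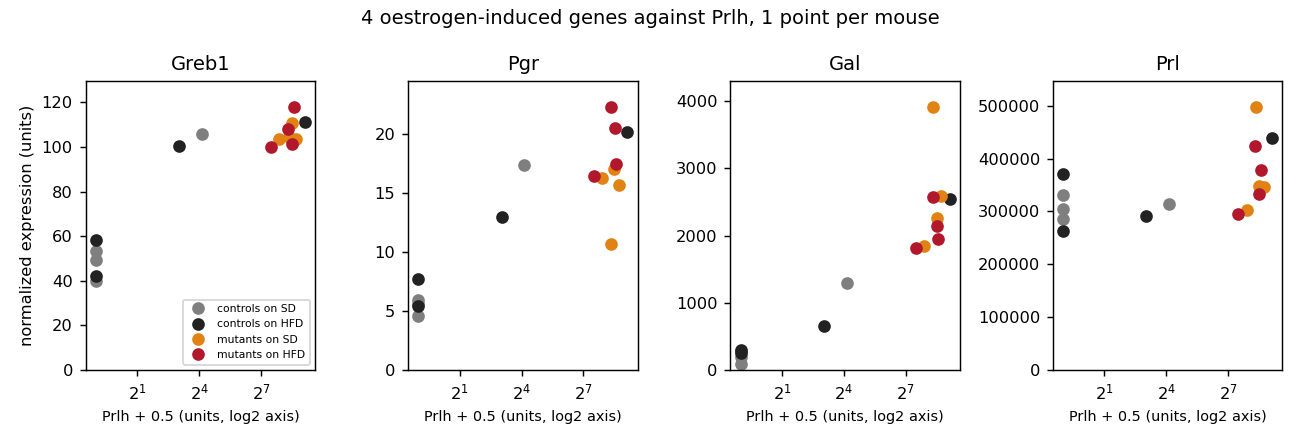
Normalized expression of *Greb1*, *Pgr*, *Gal* and *Prl* (y axes, deposited units) against *Prlh* + 0.5 (x axes, log2 axis), 1 point per mouse. The 3 controls with *Prlh* above 0 lie at the mutant level of *Greb1*, and *Prl* of the mutants and controls overlaps.

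Of the 5 oestrogen-induced genes, 2 were called higher in mutants on SD and none lower, against 1.37% of all tested genes. *Gal* rose by a log2 fold change of 3.16 (SE 0.70, limma adjusted p = 0.0363) and *Vip* by 2.61 (SE 0.38, limma adjusted p = 0.00825). *Pgr* (0.98), *Greb1* (0.87) and *Prl* (0.25) did not pass. The list's median was 0.98, beside -0.01 over all tested genes. On HFD none passed, and without P392 both *Gal* and *Vip* did. The call of *Gal* on SD held in 5 of 16 fits that left out 1 mouse, and that of *Vip* in all 16.

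Members of the peptide family of *Prlh* gave little signal. Of 8 ligand and receptor genes of the RF-amide family, 3 (*Prlhr*, *Npvf* and *Npffr2*) were not analysed here, *Qrfp*, *Npffr1* and *Qrfpr* had means under 1, and 2 were tested. *Npff*, the neuropeptide FF precursor, was between 2.31 and 7.10 over the 16 mice (log2 fold change on SD -0.08, SE 0.28, limma adjusted p = 0.897). *Kiss1r*, the kisspeptin receptor gene, was between 1.91 and 4.61 (-0.42, SE 0.22, limma adjusted p = 0.290). Neither was called on either diet, and their median on SD was -0.25.

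Other neuropeptide precursors rose in 4 cases. Of 47, 27 were listed and 25 tested, and *Penk*, *Vip*, *Gal* and *Nmb* were called higher on SD with none lower, with a list median of 0.18 on SD and 0.35 on HFD, beside 1.37% of all tested genes called higher. *Penk* rose by 2.50 (SE 0.33, limma adjusted p = 0.00415) and held in all 16 fits leaving out 1 mouse. *Nmb*, the neuromedin B precursor, rose by 1.00 (SE 0.24, limma adjusted p = 0.0468) and held in 5 of 16. The precursors with the highest means that were not called were *Pomc* (-0.81), *Chgb* (-0.43) and *Scg2* (-1.15), of secretory granules and, for *Pomc*, of corticotrophs and melanotrophs, whose markers were low in P357. None was called on HFD, and 5 were without P392, namely *Gal*, *Penk*, *Vgf* and *Vip* higher and *Nmu* lower, in a fit that called 4.55% of all tested genes.

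In the list of the prolactin cell and its regulators, 16 of 20 genes were tested, and *Esr1* alone passed on SD, lower in mutants (0.474% of all tested genes were lower). *Esr1* was 40.5, 46.6, 39.4 and 29.0 in controls on SD and 10.02, 22.2, 20.5 and 21.8 in mutants on SD, with no overlap (log2 fold change -1.09, SE 0.25, limma adjusted p = 0.0409). It was lowest in P357, and the call held in 6 of 16 fits leaving out 1 mouse. On HFD *Esr1* ranges overlapped, 23.6 to 43.4 in controls and 21.5 to 33.4 in mutants (log2 fold change -0.34, limma adjusted p = 0.696). *Pou1f1*, the factor that specifies lactotrophs, had a log2 fold change of -0.40 on SD and *Drd2* of -1.06, without passing. Without P392, 5 genes of this list passed on SD, namely *Ednra*, *Ednrb* and *Socs2* higher and *Drd2* and *Esr1* lower, in a fit that called 5.42% of all tested genes. *Drd2* is also a melanotroph gene and was lowest in P357, at 12.4, and P392, at 24.7.

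The enzymes that could process the precursor were all above the filter. Of 10, 0 were called on SD, a count that a background of 1.84% does not set apart. *Pam*, which makes the amide end, was between 128 and 301 over the 16 mice (log2 fold change on SD -0.31, SE 0.18, limma adjusted p = 0.354). *Pcsk1*, a prohormone convertase, was between 31.2 and 62.8 (0.14, SE 0.16, limma adjusted p = 0.651). *Cpe*, which trims the cut ends, was between 345 and 574 (-0.29, SE 0.13, limma adjusted p = 0.225). The median of the list was -0.19 on SD. Of 12 cell cycle genes 8 were tested and 0 called, with a median of 0.41 on SD and 0.44 on HFD and *Top2a*, the one with the highest mean level, at 0.50 on SD (limma adjusted p = 0.523).

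**Figure D4:**
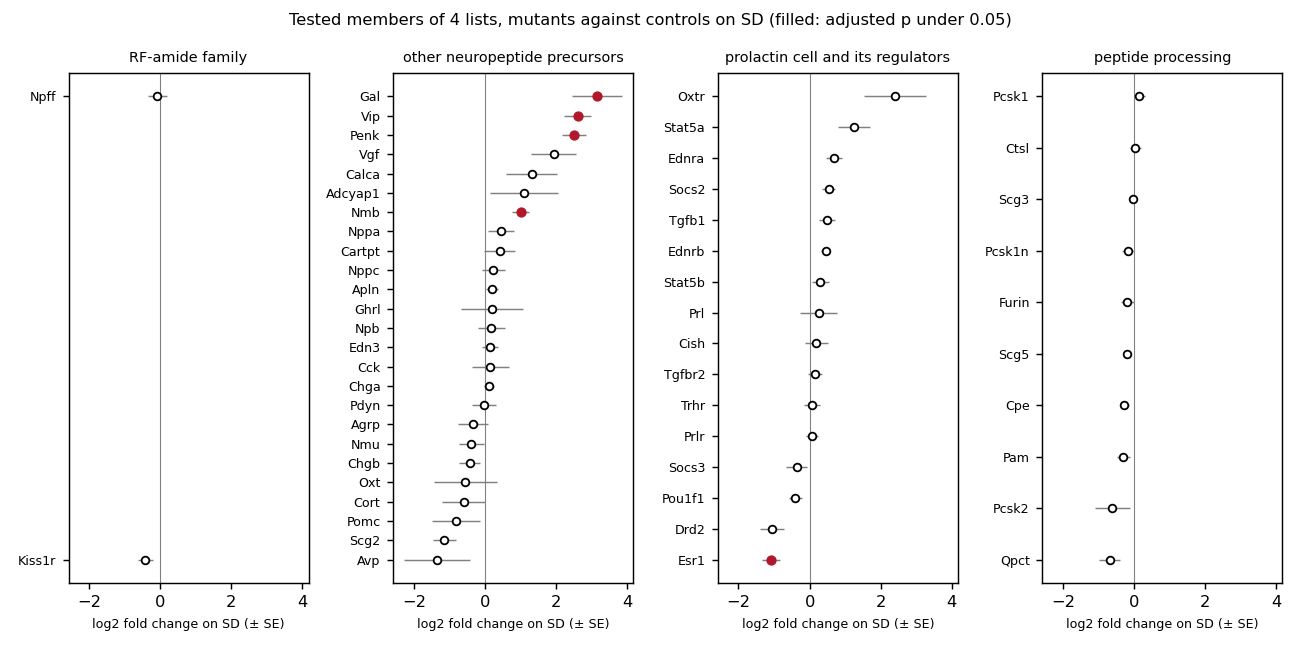
Log2 fold change of mutants against controls on SD (x axes, ± SE from limma) for the tested members of 4 lists (rows), with filled points at an adjusted p under 0.05. *Gal*, *Vip*, *Penk* and *Nmb* lie to the right and *Esr1* to the left, and no processing enzyme or RF-amide member is filled.

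Of the other 7 marker lists, the posterior lobe list (5 tested) had a median of -1.11 on SD and 0.38 on HFD. It had 1 member called on SD, *Col25a1*, higher in mutants (log2 fold change 1.00, SE 0.22, limma adjusted p = 0.0321). Its other 4 members had log2 fold changes below 0, *Avp* (-1.35), *Oxt* (-0.56), *Rax* (-1.11) and *Gfap* (-1.11), none of which passed, and 1.37% of all tested genes were called higher. The endothelial list (6 tested) had a median of 0.60 on SD and 0.42 on HFD with 0 called, although its summed level separated the groups on SD as given above. Without P392 *Cdh5*, *Esam*, *Kdr*, *Pecam1* and *Plvap* passed on SD, in the fit that called 5.42% of all. The immune list (6 tested, median 0.88), the stem and folliculostellate list (4 tested, 0.30) and the list of somatotrophs, thyrotrophs and gonadotrophs (8 tested, 0.04) had 0 called on SD. The hypothalamic list (5 tested, -0.34 on SD and 0.38 on HFD) and the melanotroph list (5 tested, -1.05 on SD and 0.60 on HFD) also had 0 called on SD. Among mutants on SD, P357 averaged 0.30 for posterior lobe and 3.66 for melanotroph markers on the log2 scale. The other mutants on SD averaged 2.30 to 2.75 and 6.46 to 6.80. In the SD fit without P392, *Gad2* and *Slc17a6* (hypothalamic), *Aldh1a2* (stem) and again *Col25a1* passed higher, and *Drd2* (melanotroph) lower. On HFD without P392, *Gad2*, *Slc17a6*, *Cdh5*, *Kdr*, *Pecam1*, *Col25a1* and *C1qa* passed higher and *Lhb* lower, in a fit that called 4.55% of all. The part of these cells in *Prlh* was not tested.

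Genes close to *Prlh* on chromosome 1 were examined for whether they moved with it. Of 26 annotated genes within 500 kb, 15 are protein-coding and 11 were tested, and 1 was called on SD, *Mlph* (1 of 11, beside 1.84% of all). *Mlph* encodes melanophilin, which ties granules to myosin, lies on the same strand and ends 1.97 kb before the start of *Prlh*. It was 2.24, 1.23, 0.645 and 1.18 in controls on SD and 3.44, 4.43, 5.34 and 4.93 in mutants on SD, with no overlap (log2 fold change 1.52, SE 0.35, limma adjusted p = 0.0388). On HFD it was 1.16, 1.24, 0.896 and, in P392, 4.59 in controls, and 4.84, 3.61, 3.46 and 4.15 in mutants. *Mlph* thus followed *Prlh* in P392 and P356, with r = 0.952 over 16 mice, but at a level of a few units and with no mouse at 0. The call held in 5 of 16 fits leaving out 1 mouse, with adjusted p between 0.0017 and 0.122.

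*Rab17*, a small GTPase gene 4.11 kb after *Prlh* on the other strand, had r = 0.407 and a log2 fold change of 0.86 on SD (SE 0.33, limma adjusted p = 0.167). *Lrrfip1*, 44.7 kb after, had r = 0.486. The genes farther away that had r over 0.9 were *Ube2f* (296 kb after, r = 0.921), *Klhl30* (397 kb, r = 0.956) and *Erfe* (412 kb, r = 0.949). *Erfe*, which encodes erythroferrone and overlaps the opposite-strand gene *Ilkap*, had a log2 fold change of 2.13 (SE 0.54, limma adjusted p = 0.0558), and *Klhl30* of 1.75 (SE 0.47, limma adjusted p = 0.0646). Whether reads were counted by strand is not given in the sources used here. In all, 4 of 11 neighbours (36.4%) had r over 0.9, beside 207 of all 14344 (1.44%), and 6 of 11 (54.5%) had an unadjusted p under 0.05 on SD, beside 2854 (19.9%). *Cops8*, *Ilkap* and *Hes6* had r below 0, and *Scly* (0.133) and *Per2* (0.469) had r between 0 and 0.5. Without P392, 4 of the 11 passed on SD, namely *Mlph*, *Klhl30*, *Ube2f* and *Erfe*, beside 5.42% of all tested genes.

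**Figure D5:**
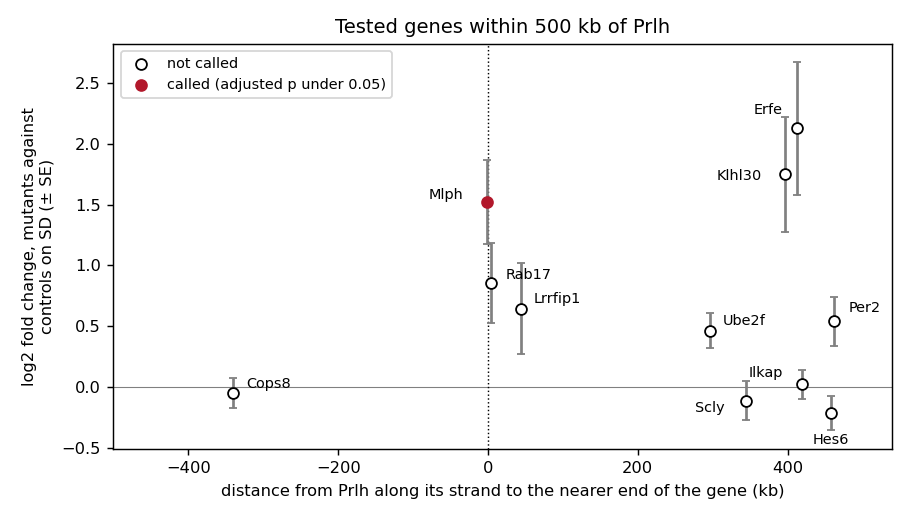
Log2 fold change of mutants against controls on SD (y axis, ± SE from limma) of the 11 tested genes within 500 kb of *Prlh*, against the distance from *Prlh* to the nearer end of the gene (x axis, kb, negative before *Prlh*). *Mlph*, next to *Prlh*, is the filled point at 1.52, and *Erfe* and *Klhl30* stand as high, farther away.

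The 250 bases before the start codon are shown since *Prlh* was on in all mutants and in few controls. This sequence is only part of the 1.97 kb between *Mlph* and *Prlh*. It is taken from RefSeq on GRCm38.p6, chr1:90952858-90953107, plus strand, and capitals mark a match to TATNCAT, a core of sites bound by the lactotroph factor Pit-1, the product of *Pou1f1*.
Prlh upstream: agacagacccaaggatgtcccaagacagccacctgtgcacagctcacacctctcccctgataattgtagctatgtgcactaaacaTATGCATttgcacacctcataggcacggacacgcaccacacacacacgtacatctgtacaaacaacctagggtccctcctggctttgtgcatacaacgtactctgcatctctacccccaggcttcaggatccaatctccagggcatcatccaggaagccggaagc
The match spans bases -165 to -159, counted from the start codon. TATNCAT or its reverse complement ATGNATA was in 7.92% of the 32851 RefSeq windows of 250 bases, and in 0 of the 8 of the 10 like genes that had a window. The palindrome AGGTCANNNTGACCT, bound by oestrogen receptors, was in 0 windows of *Prlh* and of the 8 genes and in 7 of all (0.0213%), and its single arm AGGTCA or TGACCT, which the palindrome contains, was in none of them and in 14.0% of all. TATAAA or TTTATA was not in the *Prlh* window, was in that of *Slco2a1* and in 12.4% of all. TATNCAT was searched after the sequence had been read. These are matches of letters in this window and say nothing of binding.

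Among the 8 mutants, in which *Prlh* was on in every mouse, its level was set against 12 genes, and no relation passed correction. The largest was with *Adamts19* (Pearson r = 0.536, exact permutation p = 0.175, adjusted 0.868, Spearman rho = 0.452, exact permutation p = 0.267), followed by *Greb1* (r = 0.502, exact permutation p = 0.202). *Gal* had r = 0.400 and *Esr1* r = 0.107, both with an adjusted permutation p of 0.868. *Prl* had r = 0.447. Without the 2 mice farthest from the median, r became -0.74 for *Prl*, -0.50 for *Gal*, 0.04 for *Greb1*, 0.33 for *Adamts19* and 0.18 for *Esr1*, so the relations with *Prl*, *Gal* and *Greb1* rested on those mice. With values centred within diet, the largest was *Prss28* (r = 0.784, exact permutation p = 0.0417, adjusted 0.5). The 10 like genes had r between -0.27 and 0.83 over the same 8 mutants, given as a description.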

How the data were processed

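The authors made 1 pituitary library per mouse (NEBNext Ultra II, NovaSeq) and, per their methods, ran kallisto (gene mode, mm10) and then sleuth. The deposited values are a normalized signal per gene, never negative, with sums of 908897 to 1335782 per library. They are not counts, so depth is known only through the estimate of 1 read. How strand was used, and tool versions, are not given in the sources used here. The deposited table listed 17362 genes, of which 17351 had a symbol.

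Genes whose mean reached 1 (14345) were taken to log2 after adding 0.5 and fitted in limma 3.58.1 (R 4.3.3, trend, 1 mean per group over 16 mice, Benjamini-Hochberg at 0.05), and single values with exact permutation over mice. A fold change on this scale understates that of low genes. The search for the value of 1 read gave best fragment lengths of 250 to 300 bases. Of 115 low values of 28 short genes, 76.5% lay within 0.25 of a whole number. Python 3.11.15 with numpy 2.4.6, pandas 2.3.3, scipy 1.17.1 and matplotlib 3.10.9 did the rest.

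*Prlh*, the lists and the tests were chosen with earlier results of these data known. Genes were named by rule: *Prlh*, the 10 with the highest r, tested genes within 500 kb, the 12 partners, and of each list those called and up to 4 with the highest mean. Others were named after their values were seen. Alternatives were pseudocounts of 0.1 and 1, median scaling, a filter at 5 or none, no trend, the range of animal numbers, and leaving out mice. Nothing says that mice came from separate litters or cages, so p-values measure the spread between these mice.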

Additional observations from a re-analysis of the deposited data

Results flagged for a closer look

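Within each group of 4 mice, the value of 1 mouse for a gene was picked out by its gap to the nearest other value. That gap had to exceed Dixon's 95% critical value as a share of the group's range. Over 20 genes and 4 groups, 80 groups in all, 22 values were picked out, 9 of them in P392. Chance picks out about 1 group in 20 if values are normally distributed. The values were on the deposited scale, and their distribution was not checked. Of the 20 genes, 10 were named for a profile like that of *Prlh* and all share the same mice, so the picks are not independent.

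*Prlh* itself was picked out at 17.1 in P356 among controls on SD (the other 3 at 0) and at 556 in P392 among controls on HFD. With the other 3 at 0, any value above 0 is picked out, and *Prlh* was chosen by its values in controls. Its picks are therefore a description and are not to be set against chance. P356 was also high for *Slco2a1* (7.67), *Scnn1g* (14.0), *Ppp1r1c* (3.43), *Asic2* (41.1), *Igfbp3* (48.3), *Gal* (1294), *Vip* (4.65) and *Pgr* (17.4). P392 was also high for *Fam19a5* (26.9), *Ppp1r1c* (17.1), *Asic2* (93.9), *Rps7* (357.9), *Clec2l* (40.3), *Ly6a* (439), *Igfbp3* (105) and *Mlph* (4.59).

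In mutants 4 values were picked out. P388, the mutant with the lowest *Prlh*, was low among mutants on HFD for *Asic2* (52.7) and *Rgs7bp* (7.11). P357, with low markers of the other lobes, was low for *Esr1* (10.02), and P384 was high for *Greb1* (111). Causes were not tested.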

How the results depend on the processing

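Over 14 results, 177 of 220 alternatives were counted as unchanged. For most results this meant the same direction and side of the threshold, or a count within 1.5 times. Of the 177, *Prlh* by genotype gave 12 on SD and 12 on HFD, with a direction fixed by its choice and no threshold. The RF-amide, processing and cell cycle lists gave 24 each and the relations within mutants 12, all counts that stayed at 0. The total is therefore a weak measure of stability. *Prlh* remained higher in mutants under every scaling, pseudocount and left-out mouse, by 7.64 to 9.35 on the log2 scale on SD and 4.50 to 7.88 on HFD when 1 mouse was left out. The choice of *Prlh* by these values fixed that direction, so these ranges are a description and no support. The diet difference of *Prlh* in mutants ran from -0.29 to 0.11 over the 8 fits that left out 1 mutant, and turned to 0.11 without P388. In controls it ran from 0.06 to 3.54 when 1 control was left out, and no setting called it. Counts of genes called on SD when 1 mouse was left out ran from 2 to 5 for other neuropeptide precursors, from 0 to 5 for the prolactin cell list and from 1 to 4 for the oestrogen-induced genes, and stayed at 0 for the RF-amide, processing and cell cycle lists. The prolactin cell list had 0 called with the range of animal numbers as covariate and 6 without P392 and P357. On HFD, other neuropeptide precursors had 7 called without P392 and P357 and 5 without P392, and oestrogen-induced genes 2 and 2. Neighbours on SD had 3 and 4 called in the same 2 fits. These fits without P392, except for *Prlh* by genotype and leaving out each mouse on SD, were chosen after seeing the data. The causes were not tested. No paired analysis was possible because the labels give animal numbers and no replicate numbers shared between groups.

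*Prlh* has a short transcript, so its values rest on few bases and on fragment length, and a value of 0 allows up to 3 reads. With 4 against 4 mice, the exact test cannot go below p = 0.0286. The genotype difference of *Prlh* was the reason for its choice. Receptors such as *Prlhr* were not analysed here, and no protein was measured.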
